A study of Mus musculus with 16 samples.

Results

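The glycolysis and hypoxia genes described here are 38 genes chosen by function: the transporters and enzymes that take glucose to lactate, the kinases that set the pathway's pace, and the sensors and targets of the hypoxia-inducible factors (HIF). Probes of 36 of the 38 were named through their RefSeq accession and all 36 passed the filter on dim probes, among 12298 genes tested. Gapdh and Ndrg1 had no named probe and were not analysed here. Each gene was read from its brightest tested probe.

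RNA was hybridised to 16 mouse Agilent arrays with 2 colours. The tumour-infiltrating fraction (8 arrays, labelled TIC) is the part of a mashed Hepa1-6 tumour that density gradient centrifugation enriched in inflammatory cells, and the tumour blood (8 arrays) came from mice with the same tumours. Hepa1-6 is a mouse hepatoma cell line, and its cells had been placed under the skin 10 days earlier. Both groups were read in Cy5, and Cy3 held blood RNA of untreated C57Bl/6 mice on all 16 arrays, with no dye swap. All animals are labelled female C57Bl/6 mice, the protocol text calls the tumour hosts athymic, and no ages are given. Blood was kept in RNAlater and extracted with another RNA kit than the fraction, and slides 1 and 2 held blood while slides 3 and 4 held the fraction, so tissue, kit and slide cannot be told apart. The untreated blood stands for 1 control sample, so a ratio to it says nothing of how untreated mice vary and keeps any dye bias of a gene. The labels do not say whether a sample number stands for 1 animal, so p-values measure the spread between these samples.

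Glycolysis splits glucose to pyruvate in the cytosol, and lactate dehydrogenase turns pyruvate to lactate when little of it enters mitochondria. Prolyl hydroxylases that need oxygen mark HIF alpha subunits for destruction, so at low oxygen these subunits persist and bind promoters at short cores ending in CGTG, among them those of most glycolytic enzymes. Mature red cells have no mitochondria and live on glycolysis, and during their maturation the receptor Bnip3l directs mitochondria to their removal.

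Marker genes were set against the labels first, as sums of background-subtracted signals that were not scaled between arrays. Fraction arrays were brighter in Cy5 as a whole, with a median signal over all spots of 24 to 95, against 9 to 23 on blood arrays. The summed Cy5 signal of 9 macrophage markers was 33120 to 162700 in the fraction, against 267 to 654 in tumour blood. The sum over 12 erythroid markers was 96370 to 292000 in the fraction, against 510300 to 1075000 in tumour blood. Tumour cells were not removed from the fraction, where 10 hepatoma markers summed to 176600 to 1007000, against 156.3 to 349.4 in tumour blood. In a bulk sample, fewer cells of a type and less RNA per cell cannot be told apart.

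The reference channel differed between the array sets, although the labels name the same untreated blood for both. The 10 hepatoma markers summed to 14680 to 32870 in Cy3 on fraction arrays, against 327.5 to 367.3 in Cy3 on blood arrays. The 9 macrophage markers summed to 3042 to 4626 in Cy3 on fraction arrays, against 778 to 1005 on blood arrays. Among the glycolysis and hypoxia genes, 24 of 36 had a median Cy3 signal at least 2-fold higher on fraction arrays than on blood arrays, against 27.3% of all genes tested, and 1 of 36 (Car9) was at least 2-fold lower, against 0.691%. The Cy3 signal of P4ha2 was well above background on 8 of 8 fraction arrays (median 269.5) and on 0 of 8 blood arrays (median 15.75). Pfkl (10.3-fold), P4ha1 (10.2-fold), Pfkp (9.23-fold), Ero1a (8.97-fold), Ddit4 (8.15-fold), Pdk1 (7.78-fold), Pkm (6.25-fold), Hk2 (6.08-fold) and Slc2a1 (4.77-fold) were brighter in Cy3 on fraction arrays by the folds given. For Ldha (1.28-fold), Hif1a (1.32-fold), Bnip3l (1.26-fold), Slc16a1 (1.19-fold) and Pfkfb3 (1.12-fold) the reference signal was near the same on both sets. A ratio to a brighter reference comes out lower, and the part of this difference in each result was not tested. The comparison of Cy5 signals alone does not use the reference and scales arrays by quantiles in place of loess, so both change at once. It is given beside the ratios of each gene whose sign or call it changed between fraction and tumour blood. Of genes called in both, the difference was larger by over 1 from Cy5 signals alone for Hk2 (4.12), Slc2a1 (3.39), Gpi1 (3.16), Aldoa (2.78), Tpi1 (3.01), Pgk1 (4.28), Pgam1 (4.59), Ldha (4.08), Ero1a (3.37) and P4ha2 (3.30).

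Promoters of the genes on which the results turn are shown first, because HIF acts through their sequence. The sequences are from RefSeq (GRCm38.p6), run 5′ to 3′ on the gene's strand, and span 250 bases before to 50 after an annotated start. Capitals mark the HIF cores ACGTG and GCGTG on either strand (as CACGT and CACGC on the other strand), and CACGTG counts as an overlapping pair. Ldha (chr7:46845554-46845853, plus strand), Pgk1 (chrX:106186850-106187149, plus strand), Pgam1 (chr19:41911621-41911920, plus strand) and Bnip3 (chr7:138909457-138909756, minus strand) had the largest ratios in the fraction. Tpi1 (chr6:124814109-124814408, minus strand) also rose and has no core in the window. Car9 (chr4:43506776-43507075, plus strand), a standard marker of HIF activity, has a core and did not rise.

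Ldha: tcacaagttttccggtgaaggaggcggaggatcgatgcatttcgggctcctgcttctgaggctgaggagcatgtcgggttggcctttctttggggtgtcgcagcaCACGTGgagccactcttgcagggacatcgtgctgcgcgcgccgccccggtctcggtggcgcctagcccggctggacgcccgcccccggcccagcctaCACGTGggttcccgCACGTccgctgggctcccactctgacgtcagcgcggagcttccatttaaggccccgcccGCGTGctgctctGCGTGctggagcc
Pgk1: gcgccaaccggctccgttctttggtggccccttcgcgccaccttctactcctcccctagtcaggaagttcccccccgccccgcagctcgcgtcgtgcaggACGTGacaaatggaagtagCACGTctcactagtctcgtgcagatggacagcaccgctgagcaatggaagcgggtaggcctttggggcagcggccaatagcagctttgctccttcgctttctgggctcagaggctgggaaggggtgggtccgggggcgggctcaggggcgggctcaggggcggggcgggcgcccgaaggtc
Pgam1: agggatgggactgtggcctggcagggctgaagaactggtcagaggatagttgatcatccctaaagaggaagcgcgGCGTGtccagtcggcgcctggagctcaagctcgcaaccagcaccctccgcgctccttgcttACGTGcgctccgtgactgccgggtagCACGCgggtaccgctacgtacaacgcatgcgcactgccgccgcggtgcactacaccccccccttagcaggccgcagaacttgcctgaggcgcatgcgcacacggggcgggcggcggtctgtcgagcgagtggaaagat
Bnip3: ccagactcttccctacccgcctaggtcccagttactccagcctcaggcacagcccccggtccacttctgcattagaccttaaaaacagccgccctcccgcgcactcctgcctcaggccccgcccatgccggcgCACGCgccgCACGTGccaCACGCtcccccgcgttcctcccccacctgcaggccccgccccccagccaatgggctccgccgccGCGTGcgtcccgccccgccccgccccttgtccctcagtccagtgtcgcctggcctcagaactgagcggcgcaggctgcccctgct
Tpi1: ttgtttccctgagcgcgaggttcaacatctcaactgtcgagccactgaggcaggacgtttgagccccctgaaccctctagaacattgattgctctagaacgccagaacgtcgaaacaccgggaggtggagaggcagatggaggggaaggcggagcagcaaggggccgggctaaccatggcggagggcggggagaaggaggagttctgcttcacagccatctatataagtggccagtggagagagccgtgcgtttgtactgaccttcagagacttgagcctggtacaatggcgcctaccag
Car9: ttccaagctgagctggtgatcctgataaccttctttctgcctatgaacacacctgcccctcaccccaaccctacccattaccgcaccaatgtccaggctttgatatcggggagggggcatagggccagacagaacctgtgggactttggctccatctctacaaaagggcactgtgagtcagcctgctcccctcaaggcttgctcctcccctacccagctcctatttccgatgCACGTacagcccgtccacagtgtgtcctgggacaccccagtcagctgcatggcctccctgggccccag

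The Ldha window held 5 ACGTG and 2 GCGTG cores, and that of Bnip3 held 2 and 3. Pgam1 had 1 ACGTG and 2 GCGTG, and Pgk1 had 2 ACGTG and no GCGTG. The single core of Car9 was an ACGTG. Windows were listed for 35 of the 38 genes (48 windows, some genes having several starts), and 32 genes had a core in at least 1 of them. Either core stood in 83.3% of these windows, against 43.8% of all 32851 windows. The windows were also richer in G and C (median 64.8%, against 52.7% of bases in all windows), and the cores themselves hold mostly G and C. A core was present for 13 of 14 genes called higher in the fraction and for 17 of 19 genes not called there, so the presence of a core did not separate them. A match of letters is a description, and no binding was measured.

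The fraction differed from untreated blood in many of these genes, while in tumour blood 1 was called. A call required both an adjusted p under 0.05 (limma, Benjamini-Hochberg over every probe tested) and a change of 2-fold or more. Against untreated blood, 14 of the 36 genes were called higher in the fraction, where 9.33% of all genes were, and 2 were called lower, where 10.1% were. In tumour blood 1 of the 36 (Slc16a3) was called higher, where 0.504% of all genes were, and 0 were called lower, where 0.244% were. The fraction set against tumour blood gave 15 genes called higher, where 12.1% of all genes were, and 4 called lower, where 11.8% were. The 2 comparisons of the fraction share its arrays. P4ha2, Adm and Eno2 passed the filter on dim probes only through fraction arrays. That these genes were brighter there than in tumour blood was therefore set in part by the filter. P4ha2 is among the genes called higher in both comparisons. The median log2 ratio to untreated blood over the 36 genes was 0.83 in the fraction (all genes: 0.05) and -0.02 in tumour blood (all genes: -0.02).

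These counts depend on how the arrays are centred. Loess, used for all values unless another setting is named, pulls each array's ratios to a centre of 0 at every brightness. Centring each array on its median ratio instead moved the median of all genes in the fraction to 1.20, with 55.7% of all genes called higher and 3.31% lower against untreated blood, and 29 of the 36 genes higher and 1 lower. Centring on spike-in control spots moved it to 0.57, with 37.8% and 8.99% of all genes and 28 and 1 of the 36. Ratios deposited by the authors moved it to 0.17, with 25.8% and 21% of all genes and 20 and 5 of the 36. The same holds between fraction and tumour blood, where 60%, 45.6% and 34.4% of all genes were called higher under these 3 settings (29, 28 and 19 of the 36) and 2.72%, 9.4% and 22.6% lower (1, 1 and 5 of the 36). In tumour blood against untreated blood they gave 0.0813%, 0.106% and 2.65% of all genes higher (0, 0 and 2 of the 36). The Cy5 signals alone gave 18.1% of all genes higher in the fraction than in tumour blood and 14.3% lower (23 and 3 of the 36). With plain background subtraction 12.4% of all genes were called lower in the fraction against untreated blood (4 of the 36). Taken relative to the median of all genes, the median of the 36 was 0.78 above it with loess, 1.38 with median and with spike-in centring, and 1.0 in the deposited ratios.

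**Figure D1:**
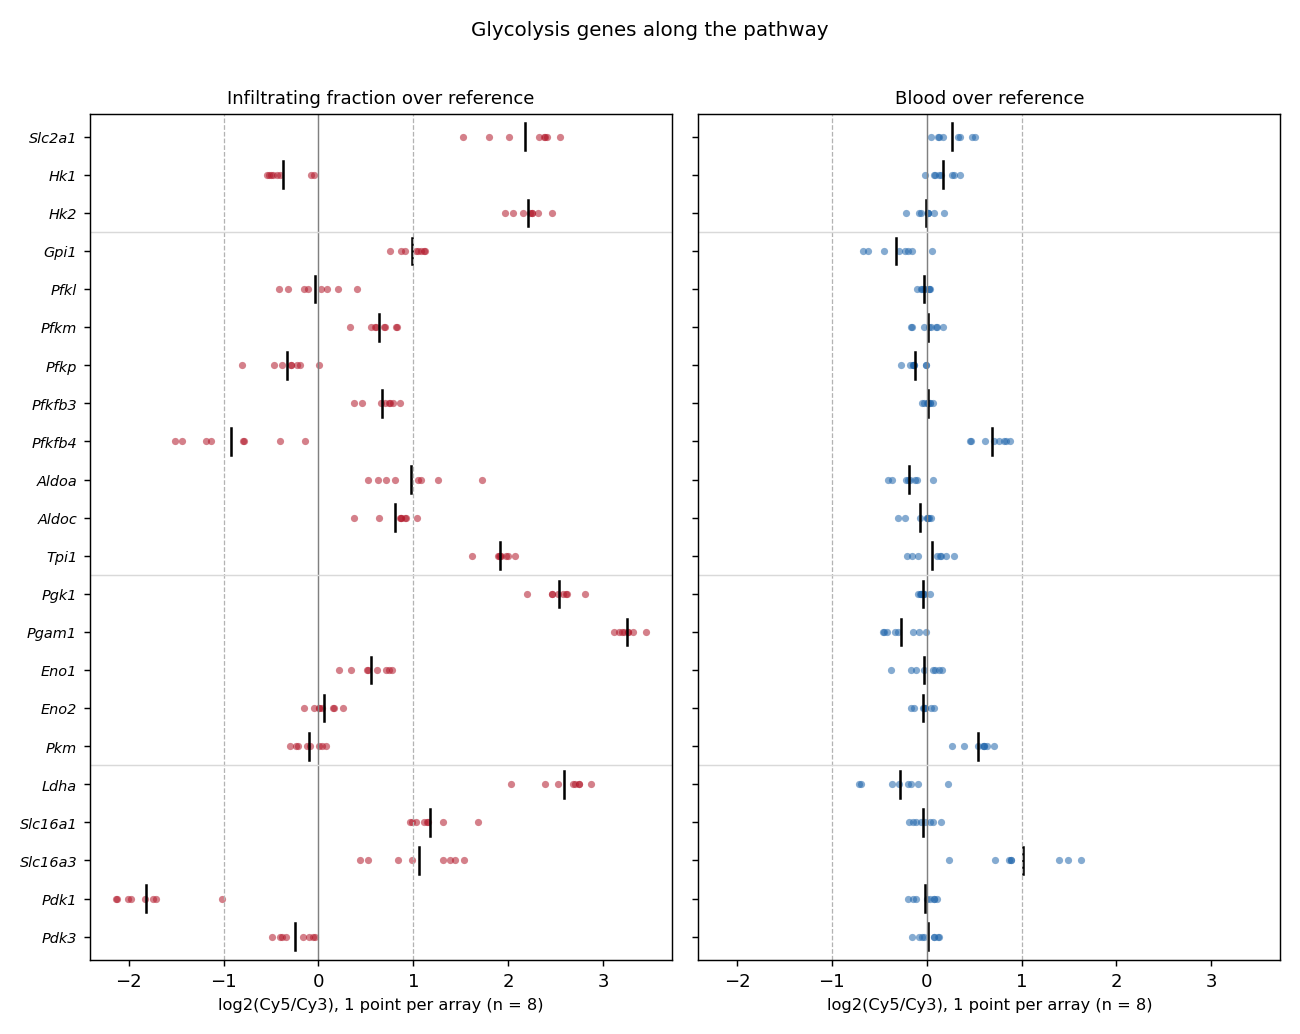
Log2 ratio to untreated blood (horizontal axes) of the glycolysis genes in pathway order (down the page), in the infiltrating fraction (left panel) and in tumour blood (right panel). Each point is 1 array, black bars are means over 8 arrays, dashed lines mark 2-fold and grey lines separate the roles. Hk2, Tpi1, Pgk1, Pgam1 and Ldha lie beyond 2-fold in the fraction on every array, while Pfkl and Pkm lie around 0 there.

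The glucose transporter Slc2a1 and the hexokinase Hk2 rose in the fraction, while Hk1 was not called. Slc2a1 (GLUT1, the widespread glucose transporter of the plasma membrane) had log2 ratios of 1.52, 2.35 and 2.55 (lowest, median and highest array, n = 8) in the fraction, against 0.05, 0.25 and 0.51 in tumour blood. Its mean of 2.17 ± 0.11 (SE; 4.51-fold, adjusted p = 1e-07) was called in the fraction, while 0.27 ± 0.05 in tumour blood was positive on 8 of 8 arrays and not 2-fold. The groups did not overlap, and the fraction exceeded tumour blood by 1.91 ± 0.13 (adjusted p = 4.5e-10).

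Hexokinase traps glucose in the cell by phosphorylation, and its isoforms had unlike ratios. Hk2, the isoform that growing and tumour cells induce, had log2 ratios of 1.97, 2.24 and 2.46 in the fraction, against -0.22, 0.01 and 0.18 in tumour blood. The fraction exceeded tumour blood by 2.22 ± 0.07 (adjusted p = 7.8e-15). Hk1, the widespread isoform, had -0.54, -0.46 and -0.05 in the fraction, against -0.02, 0.14 and 0.35 in tumour blood. Its difference of -0.54 ± 0.08 was below 2-fold, and its Cy5 signal was well above background on 5 of 8 blood arrays. Its median Cy5 signal was low, at 131 in the fraction and 25.5 in tumour blood.

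Gpi1 was called against tumour blood, and the phosphofructokinases were not called. Gpi1, which turns glucose phosphate to fructose phosphate, had log2 ratios of 0.75, 1.04 and 1.12 in the fraction, against -0.67, -0.26 and 0.06 in tumour blood. The mean in the fraction (0.99 ± 0.05) lay just below 2-fold over untreated blood, and the difference from tumour blood (1.31 ± 0.10, adjusted p = 1.1e-09) was called. The 3 phosphofructokinase subunits, which form the committed step, averaged 0.64 ± 0.06 (Pfkm), -0.03 ± 0.09 (Pfkl) and -0.33 ± 0.08 (Pfkp) in the fraction, against 0.01 ± 0.05, -0.02 ± 0.04 and -0.13 ± 0.04 in tumour blood. None of the 3 was called, while Pfkm was called higher in the fraction than in tumour blood from Cy5 signals alone (1.21, against 0.63 from the ratios).

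Pfkl and Pfkp are among the genes with a brighter reference on fraction arrays, and their direction turned with the setting. The median Cy5 signal of Pfkl was 2423 in the fraction, against 20 in tumour blood, and that of Pfkp was 4183 in the fraction, against 39.5 in tumour blood. From Cy5 signals alone, scaled between arrays by quantiles, the fraction exceeded tumour blood by 1.66 for Pfkl and 1.61 for Pfkp, against -0.01 and -0.21 from the ratios. With the reference kept, the difference was 1.99 for Pfkl and 2.10 for Pfkp with median centring, and 1.33 and 1.44 with spike-in centring. Relative to the median of all genes, Pfkl in the fraction was at -0.08 with loess and at 0.69 with median centring.

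The bifunctional enzymes Pfkfb3 and Pfkfb4 make the sugar bisphosphate that activates phosphofructokinase, and both are known HIF targets. Pfkfb3 had log2 ratios of 0.37, 0.72 and 0.86 in the fraction, against -0.05, 0.01 and 0.07 in tumour blood, a difference of 0.65 ± 0.07 that was not 2-fold and was 0.06 from Cy5 signals alone. Pfkfb4 had -1.51, -0.96 and -0.14 in the fraction, against 0.46, 0.73 and 0.88 in tumour blood. Every fraction array was therefore below untreated blood and every blood array above it, and the difference of -1.61 ± 0.16 (adjusted p = 1e-07) was called. The sign of this difference turns with the centring: it was 1.04 with median and 0.38 with spike-in centring, and -1.95 from Cy5 signals alone.

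Aldolase cuts the sugar bisphosphate into triose phosphates. Aldoa, the main isoform outside liver and brain, had log2 ratios of 0.52, 0.93 and 1.72 in the fraction, against -0.41, -0.19 and 0.07 in tumour blood, and the difference of 1.16 ± 0.14 (adjusted p = 7.4e-07) was called. Against untreated blood its mean of 0.97 ± 0.12 in the fraction was not called, while a second probe of Aldoa gave 1.15 and was called higher. Aldoc averaged 0.81 ± 0.07 in the fraction and was well above background on 0 of 8 blood arrays. For such genes a bound is also given, from single-channel log2 intensities after loess and scaling between arrays. Between fraction and tumour blood both sides are Cy5, so a gene's dye bias cancels, while slide, kit and brightness of the array sets still differ. A bound against untreated blood keeps dye bias. The bound allows for a dim side only and does not divide by the reference, which was brighter on fraction arrays 3.61-fold for Aldoc. It can therefore exceed the fold of the ratios. Aldoc was at least 2.92-fold higher in the fraction than in tumour blood by this bound, while the fitted difference of its ratios was 0.87 (adjusted p = 6.8e-08) and below 2-fold. The difference in Cy5 signals alone was 1.56 and called.

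Tpi1, the triose phosphate isomerase, was the 1 upper-pathway gene whose brightest probe was called higher in the fraction against untreated blood. It had log2 ratios of 1.62, 1.92 and 2.07 in the fraction, against -0.21, 0.12 and 0.29 in tumour blood. The groups lay far apart, with a difference of 1.86 ± 0.08 (adjusted p = 5.2e-13).

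The lower pathway, which yields the ATP, held some of the largest rises of the whole set. Pgk1, the first of its ATP-making enzymes, had log2 ratios of 2.20, 2.55 and 2.81 in the fraction, against -0.09, -0.05 and 0.04 in tumour blood. The fraction exceeded tumour blood by 2.58 ± 0.07 (5.96-fold, adjusted p = 3.7e-16), and a second probe of Pgk1 gave 2.60. Pgam1, phosphoglycerate mutase, had 3.11, 3.24 and 3.45 in the fraction, against -0.46, -0.32 and -0.01 in tumour blood. Its difference of 3.52 ± 0.07 (11.5-fold, adjusted p = 2.2e-17) was the largest positive one among the 36 genes with loess, and all 8 blood arrays lay below untreated blood.

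The last steps to pyruvate were not called. Enolase 1 (Eno1) averaged 0.55 ± 0.07 in the fraction and -0.03 ± 0.06 in tumour blood. Eno2, the neuronal isoform, averaged 0.05 ± 0.05 in the fraction and was well above background on 0 of 8 blood arrays (at least 1.18-fold higher in the fraction by the bound, while the ratios differed by 0.09, adjusted p = 0.23). As it passed the filter only through fraction arrays, this bound is no separate support. Pkm, the pyruvate kinase of most tissues outside liver and red cells, had -0.30, -0.10 and 0.08 in the fraction, against 0.27, 0.59 and 0.71 in tumour blood. Its difference of -0.65 ± 0.07 (adjusted p = 4.5e-07) was not 2-fold.

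Pkm also stands in the group whose reference signal differed between array sets. Its median Cy5 signal was 11080 in the fraction, against 265 in tumour blood, and its median Cy3 signal was 1588 on fraction arrays, against 254.2 on blood arrays. From Cy5 signals alone Pkm was 1.02 higher in the fraction than in tumour blood, against -0.65 from the ratios. With the reference kept, the difference was 2.14 with median and 1.49 with spike-in centring.

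Ldha, the muscle-type lactate dehydrogenase subunit that turns pyruvate to lactate, was among the strongest rises. It had log2 ratios of 2.03, 2.69 and 2.87 in the fraction, against -0.71, -0.25 and 0.22 in tumour blood. The fraction exceeded tumour blood by 2.87 ± 0.13 (7.32-fold, adjusted p = 1.7e-12). Its Cy5 signal ranged from 105000 to 279700 in the fraction, against 1260 to 2878 in tumour blood. A dimmer second probe of Ldha gave 0.19 in the fraction and 0.05 in tumour blood and was not called, so the probes of Ldha disagree.

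Of the lactate exporters, Slc16a3 was called higher in both groups and Slc16a1 in the fraction. Slc16a3 (MCT4, the exporter of strongly glycolytic cells) had log2 ratios of 0.44, 1.15 and 1.53 in the fraction, against 0.24, 0.89 and 1.63 in tumour blood. It was called higher against untreated blood in both, at 1.06 ± 0.13 in the fraction (adjusted p = 6.6e-05) and 1.02 ± 0.12 in tumour blood (adjusted p = 4e-06), and it is the 1 gene of the 36 that was called in tumour blood. The groups overlapped, with a difference of 0.04 ± 0.20 (adjusted p = 0.86; 0.81 from Cy5 signals alone).

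The calls for Slc16a3 lie at the 2-fold line. In tumour blood the ratio was 0.95 without sample 890, 0.96 without 897, 0.93 without 898, 0.87 on slide 1 alone, 0.42 with median and 0.45 with spike-in centring, all below it. In the fraction it was 0.99 without sample 898 and 0.70 on slide 3 alone. Neutrophil genes moved alongside in tumour blood, where 4 of 8 tested neutrophil markers were called higher and 0 lower, with a summed Cy5 signal of 28650 to 86540 (15330 to 113100 in the fraction, where 0 were called higher and 4 lower). The part of neutrophil RNA in the Slc16a3 ratio was not tested.

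Slc16a1 (MCT1, which carries lactate in either direction) had log2 ratios of 0.97, 1.12 and 1.68 in the fraction, against -0.19, -0.04 and 0.15 in tumour blood. The difference of 1.21 ± 0.09 (adjusted p = 1.3e-09) was called, and it was 0.69 from Cy5 signals alone. Another probe of Slc16a1 gave 1.18 in the fraction, while another gave -1.37 and was called lower, so its probes disagree in direction.

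Pyruvate dehydrogenase kinases inhibit the pyruvate dehydrogenase complex, which oxidises pyruvate inside mitochondria. Pdk1, a known HIF target, had log2 ratios of -2.13, -1.91 and -1.02 in the fraction, against -0.20, 0.02 and 0.11 in tumour blood. With loess it fell by 1.82 ± 0.11 in the fraction (3.52-fold, adjusted p = 4.1e-07), and its difference from tumour blood was -1.80 ± 0.12 (adjusted p = 5e-10). Pdk3 averaged -0.25 ± 0.06 in the fraction and 0.01 ± 0.04 in tumour blood and was not called.

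The fall of Pdk1 was not seen in Cy5 signals alone. Its unscaled Cy5 signal was 737.5, 1794 and 2992 in the fraction (lowest, median and highest array), against 48.5, 76.75 and 107 in tumour blood, while the median Cy3 signal was 985.8 on fraction arrays and 126.8 on blood arrays. From Cy5 signals alone, scaled between arrays by quantiles, the difference was -0.10, and it was 0.68 with median and 0.02 with spike-in centring.

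**Figure D2:**
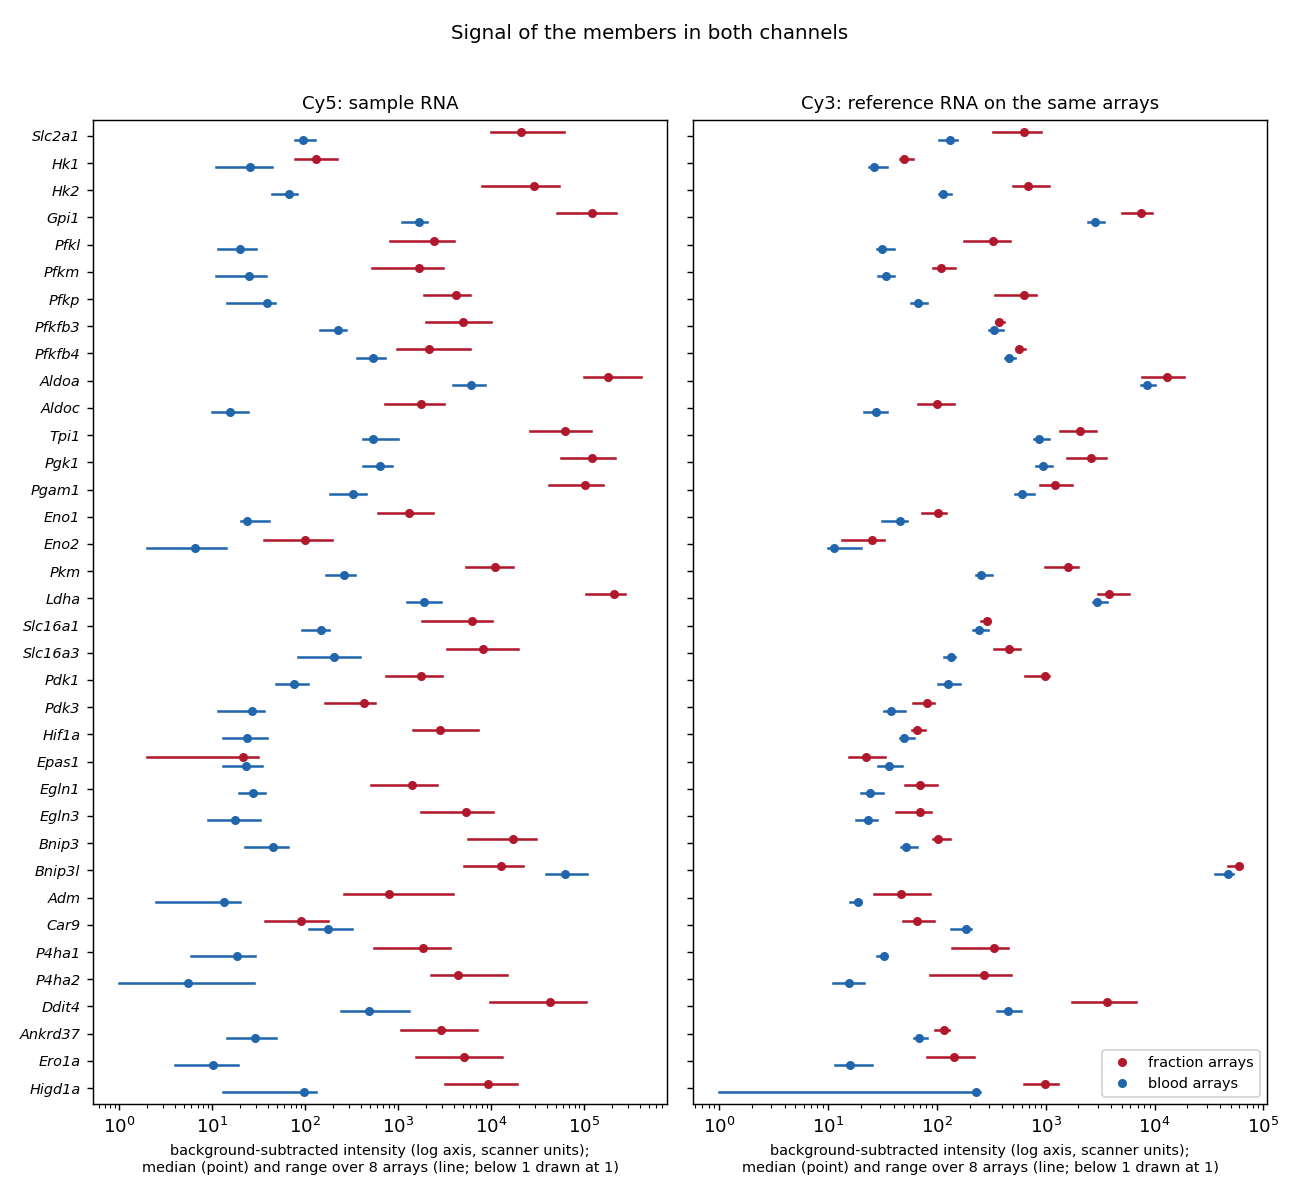
Background-subtracted signal of each gene in scanner units (horizontal log axes), in Cy5 (left panel, sample RNA) and in Cy3 (right panel, untreated blood), with fraction arrays in red and blood arrays in blue. Points are medians and lines ranges over 8 arrays. The Cy3 signals of Pfkl, Pfkp, P4ha1, Pdk1 and Pkm on fraction arrays lie well above those on blood arrays, while those of Ldha, Slc16a1 and Bnip3l lie near each other.

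Among the oxygen sensors, the HIF-1 subunit and 1 hydroxylase rose. Hif1a, the alpha subunit of HIF-1, had log2 ratios of 0.81, 1.77 and 2.39 in the fraction, against -0.21, -0.09 and -0.02 in tumour blood. Its mean of 1.76 ± 0.15 (adjusted p = 4.9e-06) was called in the fraction, and the groups did not overlap (difference 1.87 ± 0.16, adjusted p = 1.1e-08). Its Cy5 signal was well above background on 3 of 8 blood arrays, so its level in tumour blood is poorly measured. Epas1, which encodes the HIF-2 alpha subunit of endothelium and some macrophages, averaged -0.14 ± 0.04 in the fraction and 0.01 ± 0.04 in tumour blood, was well above background on 6 and 2 of 8 arrays, and was not called.

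The prolyl hydroxylases Egln1 and Egln3 are themselves induced by HIF. Egln3 (PHD3) had log2 ratios of 1.54, 2.47 and 2.89 in the fraction, against -0.04, -0.01 and 0.15 in tumour blood, where it was well above background on 1 of 8 arrays. The difference of 2.33 ± 0.15 (adjusted p = 1.4e-10) was called. Egln1 (PHD2), the main oxygen sensor in most cells, had 0.40, 0.86 and 1.14 in the fraction, against 0.11, 0.23 and 0.32 in tumour blood, and its difference of 0.64 ± 0.08 was not 2-fold.

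The HIF target genes spanned the widest range of any role in the fraction, from -5.28 to 3.40. Bnip3, a receptor for the removal of mitochondria, had log2 ratios of 2.67, 3.47 and 4.21 in the fraction, against -0.05, 0.11 and 0.39 in tumour blood. Its mean of 3.40 ± 0.17 (10.6-fold, adjusted p = 7.6e-08) was the largest rise among the 36 genes against untreated blood with loess. Its close relative Bnip3l had -5.85, -5.24 and -4.77 in the fraction, against 0.31, 0.58 and 0.89 in tumour blood. It fell by 5.28 ± 0.12 in the fraction (38.8-fold, adjusted p = 2.2e-10), and a second probe of Bnip3l gave -4.73.

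The unscaled Cy5 signal of Bnip3l was 5142 to 21970 in the fraction, against 39110 to 107500 in tumour blood. Erythroid markers moved the same way: 10 of 12 tested were called lower and 0 higher in the fraction against untreated blood, and their summed signal in the fraction lay below that in tumour blood on every array, as given above. The part of red cell RNA in the Bnip3l result was not tested. With median centring the difference from tumour blood was -3.31, and its call held in all 19 alternatives in both comparisons of the fraction.

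Called targets of protein folding and matrix formation were not well above background in tumour blood. Ero1a, the oxidase that drives disulfide formation, had log2 ratios of 1.72, 1.91 and 2.31 in the fraction and was well above background on 0 of 8 blood arrays. Its ratios differed by 2.01 ± 0.09 (4.02-fold, adjusted p = 4.4e-13), by the bound from single-channel intensities it was at least 10.1-fold higher in the fraction than in tumour blood, and a dimmer second probe of Ero1a gave 0.81 in the fraction. P4ha2, an alpha subunit of the collagen prolyl hydroxylase, had 0.38, 1.35 and 1.70 in the fraction and was likewise well above background on 0 of 8 blood arrays. Its ratios differed by 1.21 ± 0.18 (2.31-fold, adjusted p = 1.2e-05), and by the same bound it was at least 9.76-fold higher in the fraction than in tumour blood. P4ha2 passed the filter only through fraction arrays, so the direction of these values was set in part by the filter.

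Both of these genes had a brighter reference on fraction arrays, as given above, and P4ha2 differed between slides. On slide 3 alone P4ha2 averaged 0.72 against untreated blood and was not called, and on slide 4 alone it averaged 1.61. P4ha1, the other collagen hydroxylase subunit, averaged -0.23 ± 0.11 in the fraction and -0.06 ± 0.05 in tumour blood. From Cy5 signals alone P4ha1 was 1.51 higher in the fraction than in tumour blood, against -0.17 from the ratios. The summed, unscaled Cy5 signal of 8 markers of stromal and endothelial cells, the usual sources of collagen, was 45270 to 231000 in the fraction, against 140 to 464.9 in tumour blood. Their Cy3 sum was also higher on fraction arrays, at 2743 to 5726, against 366.2 to 434.3 on blood arrays. Of these markers 2 were called higher and 0 lower in the fraction against untreated blood, with 5 ratios positive and 3 negative. Their part in the P4ha2 result was not tested.

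Ankrd37, an ankyrin repeat protein and HIF target of little known function, had log2 ratios of 0.93, 1.5 and 1.71 in the fraction, against -0.40, -0.29 and -0.07 in tumour blood. It was above untreated blood on every fraction array and below it on every blood array, and the difference of 1.68 ± 0.10 (adjusted p = 1.1e-10) was called. Adm, which encodes the vasodilator peptide adrenomedullin, averaged 0.93 ± 0.11 in the fraction and was well above background on 0 of 8 blood arrays. It was at least 2.81-fold higher in the fraction than in tumour blood by the single-channel bound, while the fitted difference of its ratios was 0.99 (adjusted p = 8.1e-07), just below 2-fold. The difference in Cy5 signals alone was 1.45 and called. Adm too passed the filter only through fraction arrays, so these values are no separate support for a rise.

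Car9 was lower in the fraction than in tumour blood with loess. This carbonic anhydrase of the cell surface had log2 ratios of -1.41, -0.86 and -0.14 in the fraction, against 0.26, 0.48 and 0.89 in tumour blood. The difference of -1.34 ± 0.15 (adjusted p = 5e-07) was called, the groups did not overlap, and the difference was -2.69 from Cy5 signals alone. It was -0.16 with median centring, -0.82 with spike-in centring and -0.93 without background correction, each below 2-fold. Its signal was low in both groups, with a Cy5 median of 90.5 in the fraction and 177 in tumour blood, and its reference was also dimmer on fraction arrays (65.5, against 183.8 on blood arrays).

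The stress gene Ddit4, an inhibitor of mTOR signalling that hypoxia and glucocorticoids induce, was positive in both groups without a call. It had log2 ratios of 0.26, 0.62 and 0.96 in the fraction, against 0.05, 0.71 and 1.5 in tumour blood, and the difference was -0.10 ± 0.20. From Cy5 signals alone it was 2.63 higher in the fraction, beside a Cy3 median of 3680 on fraction arrays and 451.5 on blood arrays. Higd1a, a small mitochondrial protein, averaged 0.28 ± 0.06 in the fraction and -0.25 ± 0.07 in tumour blood, and the difference of 0.53 ± 0.10 was not 2-fold. On the blood array of sample 889 its signal was not well above background in either channel (Cy5 13, Cy3 -1) and its ratio was 0.25. Without sample 889 the difference of Higd1a was 0.62, also not called. It was called in 3 other settings, at 2.08 from Cy5 signals alone, 3.09 with median and 2.44 with spike-in centring.

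**Figure D3:**
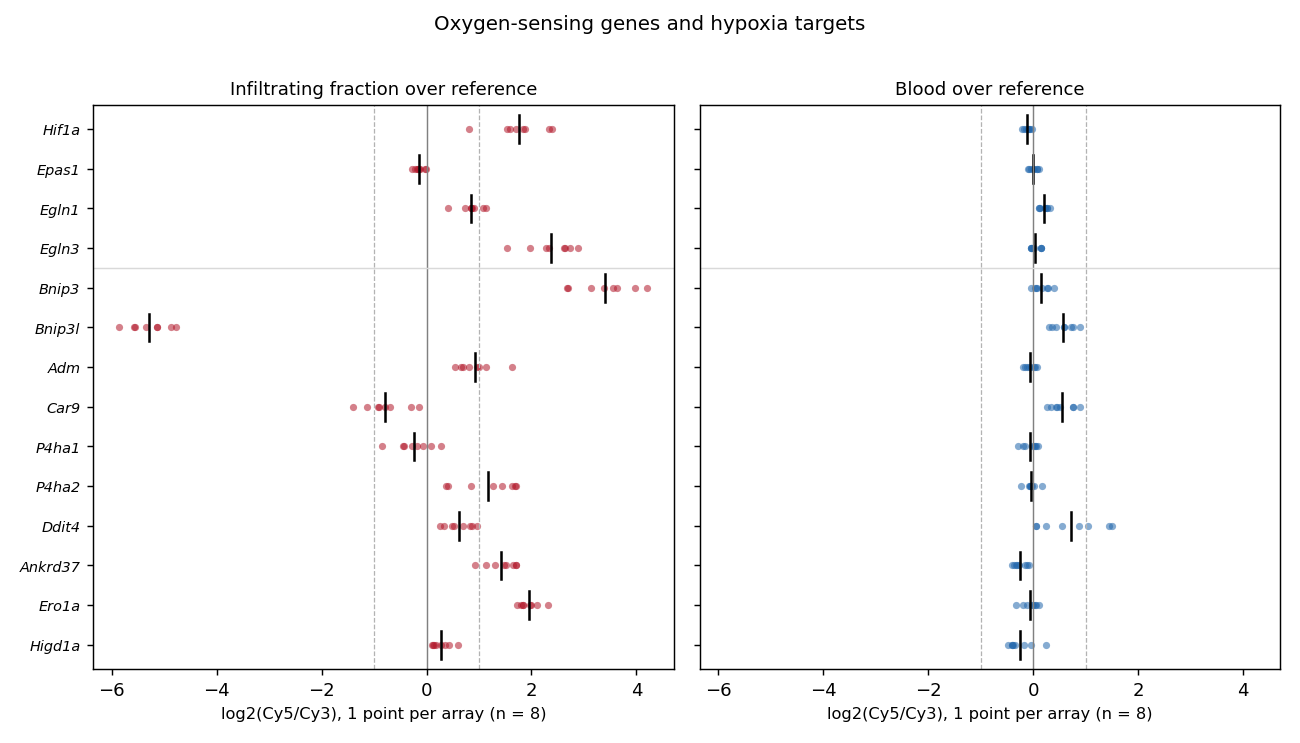
Log2 ratio to untreated blood (horizontal axes) of the oxygen sensing and HIF target genes (down the page), in the infiltrating fraction (left panel) and in tumour blood (right panel). Each point is 1 array, black bars are means over 8 arrays and dashed lines mark 2-fold. Bnip3 and Bnip3l lie at opposite ends in the fraction, near 3.40 and -5.28.

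Set over the 36 genes, the fraction arrays all lay above the blood arrays for 21 genes, where 24.8% of all genes did so, and all below for 6 genes, where 17.4% did. The 21 include P4ha2 and Adm, which passed the filter only through fraction arrays. The remaining 9 overlapped (Ddit4, Eno2, Epas1, Higd1a, P4ha1, Pdk3, Pfkl, Pfkp and Slc16a3). For Higd1a the overlap came only from the blood array of sample 889 (0.25), where neither channel was well above background. By role, calls against untreated blood in the fraction fell on 2 of 3 genes of glucose entry, 1 of 9 of the upper pathway, 2 of 5 of the lower pathway, 4 of 5 for pyruvate and lactate (3 higher, 1 lower), 2 of 4 oxygen sensors and 5 of 10 HIF targets (4 higher, 1 lower). The fraction arrays resembled each other closely over the 36 genes, with correlations between arrays of 0.92 to 0.99, against 0.53 to 0.90 among blood arrays. This was not particular to these genes, as all tested probes gave 0.80 to 0.98 within the fraction and 0.56 to 0.83 within blood.

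Isoforms of one enzyme were compared on the same array, where scaling of the whole array cancels in part. In 13 pairs the difference of the log2 ratios was tested within each group (exact two-sided sign-flip permutation over 8 arrays, Benjamini-Hochberg over 26 tests, smallest adjusted p 0.0145). The isoforms differed in 11 of 13 pairs in the fraction and in 7 of 13 pairs in tumour blood. The share of passing pairs among other genes was not computed, so these counts cannot be read as particular to isoforms. Such a difference shows unequal change against untreated blood, not unequal levels.

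In the fraction the widest pair was Bnip3l minus Bnip3, at -8.68 ± 0.35 (SD, n = 8; exact permutation, adjusted p = 0.0145), against 0.42 ± 0.27 in tumour blood (adjusted p = 0.0145). The tumour blood difference was -0.08 in the deposited ratios (exact permutation, adjusted p = 0.646). It was 0.40 with median and with spike-in centring and missed the threshold (exact permutation, adjusted p = 0.0931). Hk2 minus Hk1 was 2.58 ± 0.24 in the fraction, against -0.18 ± 0.22 in tumour blood. The first passed the exact permutation test and the second did not (adjusted p = 0.0641). Egln3 exceeded Egln1 by 1.52 ± 0.33 in the fraction, and Hif1a exceeded Epas1, the pair difference Epas1 minus Hif1a being -1.90 ± 0.55.

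Among the regulatory pairs, that of the bifunctional enzymes had differences of opposite sign in the groups, while the others lay near 0 in tumour blood. Pfkfb4 minus Pfkfb3 was -1.59 ± 0.54 in the fraction, against 0.68 ± 0.17 in tumour blood (exact permutation, adjusted p = 0.0145 for each). Pdk3 minus Pdk1 was 1.57 ± 0.30 in the fraction, against 0.03 ± 0.19 in tumour blood. The reference was brighter on fraction arrays 7.78-fold for Pdk1 and 2.12-fold for Pdk3. From Cy5 signals alone the difference of fraction from tumour blood was -0.10 for Pdk1 and -0.05 for Pdk3. P4ha2 minus P4ha1 was 1.4 ± 0.58 in the fraction, against 0.02 ± 0.22 in tumour blood.

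The lactate exporters differed in tumour blood and missed the threshold in the fraction. Slc16a3 minus Slc16a1 was -0.11 ± 0.58 in the fraction (exact permutation, adjusted p = 0.715), against 1.05 ± 0.37 in tumour blood (adjusted p = 0.0145). Aldoc minus Aldoa was -0.16 ± 0.49 in the fraction and also missed the threshold (exact permutation, adjusted p = 0.484). Among phosphofructokinase subunits Pfkm ranked first in the fraction by the ratios, with Pfkl minus Pfkm at -0.67 ± 0.39 and Pfkp minus Pfkm at -0.97 ± 0.38. The reference was brighter on fraction arrays 10.3-fold for Pfkl, 9.23-fold for Pfkp and 3.21-fold for Pfkm. From Cy5 signals alone Pfkm ranked last, the fraction exceeding tumour blood by 1.66 for Pfkl, 1.61 for Pfkp and 1.21 for Pfkm. The part of the reference in this ranking was not tested.

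The blood count rests in part on small differences of dim genes. Passing pairs in tumour blood included Pfkp minus Pfkm (-0.14), Pfkp minus Pfkl (-0.1), Egln3 minus Egln1 (-0.17) and Epas1 minus Hif1a (0.12). There Cy5 was well above background on 1 of 8 arrays for Egln3, 2 for Epas1 and 3 each for Hif1a, Pfkl and Pfkm. The blood count was 3 of 13 without sample 889, 890, 894, 896 or 898 and 4 of 13 without sample 891, with 7 arrays each. In the fraction it was 11 of 13 whichever sample number was left out. Of the 13 pair differences in the fraction, all but Slc16a3 minus Slc16a1 (0.05 without sample 893) kept their sign in every setting tried. All settings tried for pairs keep the reference. Median and spike-in centring each shift a whole array alike, which cancels within a pair. They therefore gave the same pair differences and are not separate checks. Pairs were not tested from Cy5 signals alone, where the rank of Pfkm among the phosphofructokinase subunits turned, as given above. Pfkl minus Pfkm (-0.44, exact permutation adjusted p = 0.0677 with median and with spike-in centring) and Eno2 minus Eno1 (-0.01, exact permutation adjusted p = 0.969 in the deposited ratios) missed the threshold in a setting.

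**Figure D4:**
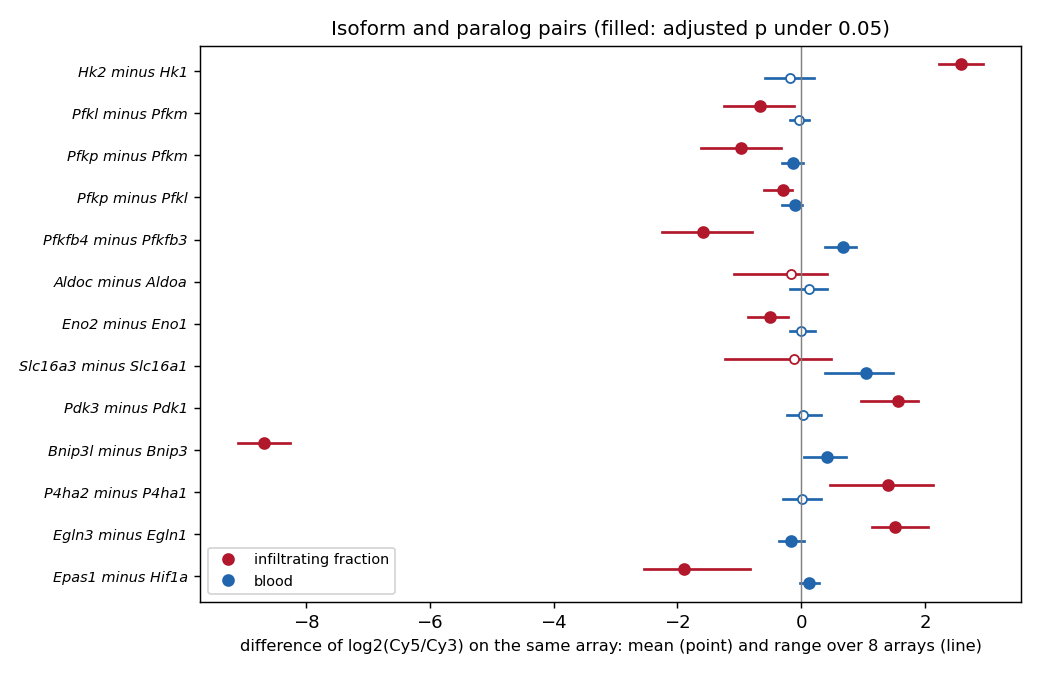
Difference of log2 ratios between 2 isoforms or relatives on the same array (horizontal axis) for 13 pairs (down the page), the infiltrating fraction (red) drawn above tumour blood (blue). Points are means, lines ranges over 8 arrays, and filled points passed the exact permutation test after adjustment. Bnip3l minus Bnip3 lies near -8.68 in the fraction, and Hk2 minus Hk1, Pdk3 minus Pdk1, Egln3 minus Egln1 and P4ha2 minus P4ha1 lie above 0 there.

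Other genes of these pathways were read from 6 companion lists, whose counts in the fraction against untreated blood stand beside 9.33% of all genes called higher and 10.1% called lower. Among 11 tested glycolysis isoforms outside the 38 genes, 0 were called higher in the fraction against untreated blood and 2 lower (median -0.10). Bpgm, the red cell enzyme that makes the bisphosphoglycerate which loosens oxygen from haemoglobin, averaged -5.79 ± 0.14 in the fraction, beside the erythroid markers given above. Slc2a3, the glucose transporter of leukocytes and platelets, averaged -1.35 ± 0.17, and 9 of 9 tested platelet markers were called lower in the fraction as well, their part in this ratio being not tested. Against tumour blood, Eno3, the muscle enolase, was 1.49 ± 0.07 higher.

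Pyruvate oxidation had 1 gene higher and 1 lower of 11 tested in the fraction against untreated blood (median 0.24). Pdk4, the kinase that fasting induces, was at least 2.69-fold higher in the fraction than in untreated blood (adjusted p = 7.3e-05), its reference signal being not well above background on any array. Mpc2, a subunit of the mitochondrial pyruvate carrier, averaged -2.70 ± 0.06. Dld, a subunit of the pyruvate dehydrogenase complex, was called against tumour blood at 1.06 ± 0.09.

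The pentose phosphate pathway, which branches off at glucose phosphate to make NADPH, had calls in the lower direction only in the fraction. Of 6 tested genes, 0 were called higher and 2 lower in the fraction (median -0.30): Taldo1, transaldolase, at -2.76 ± 0.09 and G6pdx, the entry enzyme, at -1.23 ± 0.08. In tumour blood Tkt, transketolase, was called higher at 1.75 ± 0.05, and its difference of fraction from tumour blood was -2.06 ± 0.07. The call of Tkt in tumour blood held with median centring (1.08) and spike-in centring (1.1), but its difference of fraction from tumour blood turned to 0.81 and 0.15 under these and lost its call.

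Of 10 tested genes of glycogen and gluconeogenesis, 2 were called higher and 1 lower in the fraction (median 0.06). Ugp2, which makes the glucose donor of glycogen, averaged 1.72 ± 0.06, and Pgm1 averaged 1.37 ± 0.11. Pcx, pyruvate carboxylase, averaged -1.20 ± 0.14.

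Of 10 tested HIF regulators outside the 38 genes, 1 was called higher and 3 lower in the fraction (median -0.09). Cited2, a HIF-induced protein that competes with HIF for its coactivator, averaged 1.65 ± 0.11. Hif3a averaged -3.82 ± 0.39, Elob, a subunit of the ligase that destroys HIF, averaged -1.74 ± 0.09, and the remaining hydroxylase Egln2 averaged -1.17 ± 0.13.

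Of 22 further HIF targets, 4 were called higher and 1 lower in the fraction (median 0.45). Bhlhe40, a transcriptional repressor, averaged 1.70 ± 0.12, Angptl4, an inhibitor of lipoprotein lipase, averaged 1.38 ± 0.11, Insig2, a brake on sterol synthesis, averaged 1.35 ± 0.11, and the nuclear receptor Rora averaged 1.19 ± 0.15. Mxi1, a repressor that opposes Myc, averaged -1.76 ± 0.17. Against tumour blood, Fam162a was also called, at 1.03 ± 0.07.

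Several falls in these lists turned with the centring. With median centring the ratios of Slc2a3 (0.69), G6pdx (0.82), Pcx (0.37), Egln2 (0.53), Elob (0.47) and Mxi1 (0.13) in the fraction turned positive, while Bpgm (-3.55), Hif3a (-2.63), Mpc2 (-0.55) and Taldo1 (-0.48) remained negative. Every rise against untreated blood named from these lists was called also in the deposited ratios and with spike-in or median centring.

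**Figure D5:**
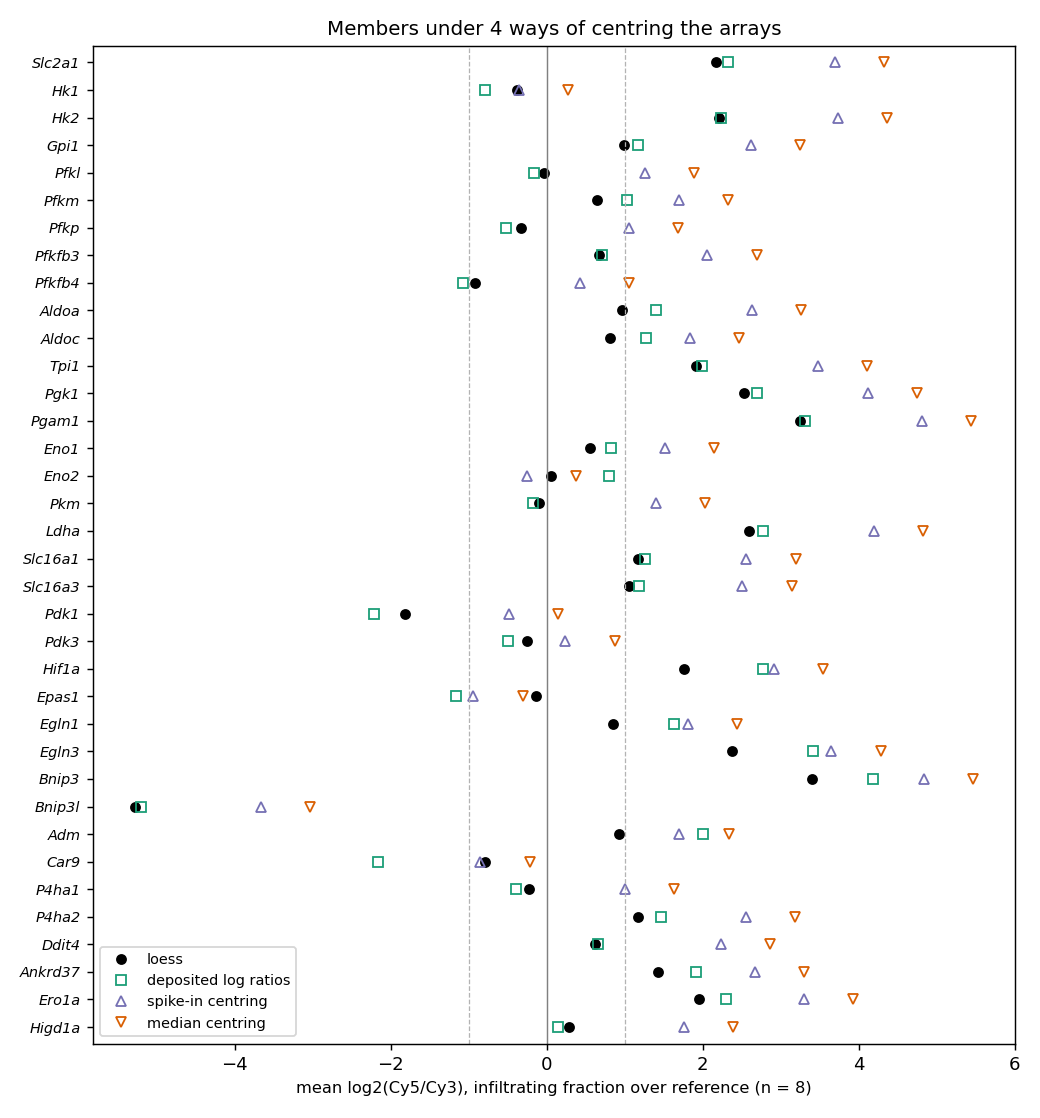
Mean log2 ratio of each gene (down the page) in the infiltrating fraction against untreated blood (horizontal axis, n = 8 arrays) with loess, in the deposited ratios, with spike-in centring and with median centring. Dashed lines mark 2-fold. Most points shift to the right with spike-in and median centring, and Bnip3l stays beyond 2-fold lower in each setting.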

How the data were processed

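Median pixel intensities of spots and of the background around them, in Cy5 and Cy3, come from the deposited scanner files. Per the file headers they were written by Agilent Feature Extraction 10.5.1.1, where the submitters' processing notes give version 9.1.3.1. The same files hold the program's log10 ratio of Cy5 over Cy3, dye-normalised per the file headers, which the deposited value table repeats. These log10 ratios were turned to log2 as an alternative. Mean intensities had been planned as input, and the deposited medians were used instead. Background was corrected by normexp (offset 50) and log2 ratios were normalised by loess within arrays in limma 3.58.1 under R 4.3.3, with the data.table package (version 1.17.8). Loess gave control spots weight 0. Between 87 and 153 spots per array carried an outlier flag and were dropped.

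Spots of a probe were averaged to 41174 probes, of which 23374 had 1 gene symbol, 0 several and 17800 none after matching unversioned RefSeq accessions (GRCm38.p6). A probe was tested if well above background on at least 4 of 8 Cy5 arrays of a group or at least 8 of 16 Cy3 arrays (26494 probes). Ratios were tested against 0 with lmFit and eBayes on the 8 arrays of a group, and the groups against each other on all 16. A bound for a gene below background on every array of one side takes, per array on that side, the higher of its own signal and the dimmest signal that still counted as well above background. Correlations between arrays over all tested probes were 0.80 to 0.98 within the fraction, 0.56 to 0.83 within blood and -0.31 to -0.08 between them, and ratios keep the direction that the labels' dyes give. In Cy5, 51.76% to 66.31% of spots were well above background on fraction arrays and 25.32% to 36.83% on blood arrays. No spot was saturated, and the number of arrays limits the precision. The fit was tested on simulated data.

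All 38 genes are named, and of each companion list up to 4 called genes with the largest absolute ratios per comparison. The genes and lists were chosen with earlier results of these data known. Marker lists whose calls are not given with the results had these in the fraction against untreated blood: 6 of 9 macrophage and 6 of 10 hepatoma markers were higher and 0 lower, 4 of 4 B cell markers were lower, and 0 of 4 T cell markers were called.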

Additional observations from a re-analysis of the deposited data

Results flagged for a closer look

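In 72 groups of 8 arrays (36 genes in 2 groups), 3 had a single array far from the others, by a rule under which chance flags about 1 in 20 groups. Tpi1 was 1.62 in the fraction of sample 893, against 1.89 to 2.07 in the other fractions. Pdk1 was -1.02 in the fraction of sample 897, against -2.13 to -1.71 in the others. Pgk1 was 0.04 in the blood of sample 889, against -0.09 to -0.03 in the others, a spread of little size.

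For 6 genes every fraction array lay on one side of untreated blood and every blood array on the other. The difference of the groups, tested by limma, was 3.52 for Pgam1, 1.87 for Hif1a and 1.68 for Ankrd37, which were above untreated blood in the fraction. It was -5.85 for Bnip3l, -1.61 for Pfkfb4 and -1.34 for Car9, which were below it in the fraction. The sign of the difference for Pfkfb4 turned with median and with spike-in centring.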

How the results depend on the processing

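Of the calls listed in the report, those of Slc2a1, Hk2, Tpi1, Pgk1, Pgam1, Ldha, Hif1a, Egln3, Bnip3, Bnip3l, Ankrd37 and Ero1a held in both comparisons of the fraction under all 19 alternatives, as did those of Gpi1, Aldoa and P4ha2 against tumour blood. The others lost a call in at least 1. Against untreated blood, the genes called higher in the fraction were 29 with median and 28 with spike-in centring, and the genes called lower were 1 and 1, 5 in the deposited ratios and 4 with plain background subtraction (12.4% of all genes). Between fraction and tumour blood 29 and 28 were higher and 1 and 1 lower, and 23 were higher from Cy5 signals alone, where 18.1% of all genes were. In tumour blood 0 were called higher with median centring, spike-in centring, no background correction or slide 1 alone, 2 in the deposited ratios, and 0 to 1 with a sample left out (0 without 890, 897 or 898). Isoform pairs passing in tumour blood were 4 in the deposited ratios and 3 to 7 with a sample left out.

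Ratios that turned positive against untreated blood with median centring were those of Hk1 (0.27), Pfkl (1.89), Pfkp (1.68), Pfkfb4 (1.06), Pkm (2.03), Pdk1 (0.15), Pdk3 (0.87) and P4ha1 (1.63), and with spike-in centring Pfkl (1.26), Pfkp (1.05), Pfkfb4 (0.43), Pkm (1.4), Pdk3 (0.24) and P4ha1 (1.0). Against tumour blood they were, with median centring, Hk1 (0.18), Pfkl (1.99), Pfkp (2.10), Pfkfb4 (1.04), Pkm (2.14), Pdk1 (0.68), Pdk3 (1.0), P4ha1 (1.75) and Ddit4 (2.81), and with spike-in centring Pfkl (1.33), Pfkp (1.44), Pfkfb4 (0.38), Pkm (1.49), Pdk1 (0.02), Pdk3 (0.34), P4ha1 (1.1) and Ddit4 (2.15). Eno2 turned negative with spike-in centring in both (-0.25 and -0.31). From Cy5 signals alone Pfkl (1.66), Pfkp (1.61), Pkm (1.02), P4ha1 (1.51) and Ddit4 (2.63) turned. Median centring subtracts each array's median ratio over all spots that are not controls, and spike-in centring that of the spike-in spots. Neither fixes the median of the tested genes, and the cause of these turns was not tested.

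With the sample number as a replicate block 15 genes were higher and 4 lower, as without it. Deviations of same-numbered arrays correlated at -0.17 to 0.20, and 2 of 8 correlated best with their own number, so the numbers were not taken to pair the samples. Genes well above background on few blood arrays, such as Hif1a, Egln3 and Ero1a, are limited by their signal there.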
